A study of Mus musculus with 35 samples.

Results

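The 9 genes described here encode the connexins and the potassium channels by which glia couple to each other and take up potassium: the 5 connexins Gja1, Gjb2, Gjb6, Gjb1 and Gjc3, and the 4 potassium channels Kcnj10, Kcnj16, Kcnk1 and Kcnk2. They were chosen by name, and the reads and the TPM (a level scaled for transcript length and library size) of all transcripts of each gene were summed in each of the 35 libraries; all 9 were among the 21574 of 54119 genes that passed the filter on low counts. Male C57BL/6JRj mice were kept on standard chow (SC) or on a high-fat, high-sugar diet (HFHS, given in the labels as 58%) from 8 to 9 weeks of age for 4 months. Cells carrying the astrocyte surface antigen ACSA2, which is encoded by Atp1b2, were isolated with magnetic beads from hypothalamus (6 SC and 5 HFHS libraries), hippocampus (5 and 7) and cortex (6 and 6), each library being made from cells pooled over 2 animals. The animals carry no transgene or other manipulation in the labels. Hypothalamus and hippocampus were sorted on a smaller column than cortex and in smaller volumes, so that a difference from cortex cannot be told apart from one of column and volume. The labels do not say what the replicate numbers stand for, so p-values measure the spread between these pools.

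Connexins assemble into hemichannels, and hemichannels of neighbouring cells dock to form gap junctions, through which ions and small metabolites pass. Gja1 (Cx43) and Gjb6 (Cx30) are the main connexins of astrocytes and Gjb2 (Cx26) a minor one, while Gjb1 (Cx32) and Gjc3 (Cx29) belong to oligodendrocytes, where the former joins layers of myelin and couples to astrocyte connexins. Kcnj10 (Kir4.1) carries the inward rectifier current that sets the resting potential of astrocytes and clears potassium around synapses, Kcnj16 (Kir5.1) is a subunit that joins it in heteromeric channels, and Kcnk1 (TWIK-1) and Kcnk2 (TREK-1) are two-pore domain channels that carry background potassium currents.

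The libraries held 47578560 to 65982495 reads. The sorted cells were not astrocytes alone: the summed TPM of 12 oligodendrocyte markers exceeded that of the astrocyte markers, of which 15 of 16 were found, in 35 of 35 libraries. Summed astrocyte marker TPM ran from 1950 to 3343 in hypothalamus on SC, from 2377 to 9844 in hypothalamus on HFHS, from 752 to 5281 in hippocampus over both diets and from 4199 to 12161 in cortex over both diets. The oligodendrocyte sum ran from 36683 to 97632 in hypothalamus, from 33391 to 85488 in hippocampus and from 6740 to 59940 in cortex. No marker of either list was at 0 throughout a group. In such bulk samples fewer cells of a type and less RNA per cell cannot be told apart, and the part of cell makeup in each result below was not tested. The ratios to marker lists set a member against the astrocyte or the oligodendrocyte markers only. They do not account for reads from other cells and are not a correction for cell makeup. The reads of 3 libraries came from shorter transcripts than the rest (hypothalamus SC replicate 6 and replicate 6 of both cortex groups, with a mean transcript length of 1922 to 2483 bases against 2530 to 2985).

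Most members were read from a single transcript, and for Gjb1 and Kcnj16 that transcript starts at one of several annotated promoters. The Gjb1 gene (chrX:101376378-101385629, plus strand, GRCm38) gave 99.2% of its TPM in hypothalamus, 98.7% in hippocampus and 99.0% in cortex to transcript Gjb1-203, which starts at position 101383736. Kcnj16 (chr11:110968033-111027968, plus strand) gave 99.1%, 98.9% and 99.0% to Kcnj16-201, which starts at 110997487. These are means of a region. In single libraries the share ran from 96.1% to 100% for Gjb1-203 and from 96.2% to 100% for Kcnj16-201. The windows printed here run from 250 bases before to 50 bases after a RefSeq start site (GRCm38.p6). They show the window of the used Gjb1 start beside an annotated Gjb1 start with almost no reads, the used Kcnj16 start, and the start of Gja1, the connexin with the highest median TPM in hypothalamus and cortex. Capitals mark every match, on either strand, to 3 motifs searched: ACAAAG (the core of Sox factor sites), TATAAA (the TATA box) and TGAGTCA (the AP-1 site).
Gjb1 used start, chrX:101383482-101383781, plus strand: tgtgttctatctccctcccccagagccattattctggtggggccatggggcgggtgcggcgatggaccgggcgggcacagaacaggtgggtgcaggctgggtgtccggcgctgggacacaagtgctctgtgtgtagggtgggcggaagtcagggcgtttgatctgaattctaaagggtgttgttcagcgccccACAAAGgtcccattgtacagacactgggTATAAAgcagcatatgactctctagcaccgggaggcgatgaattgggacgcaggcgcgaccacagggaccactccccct
Gjb1 other start (Gjb1-201), chrX:101376985-101377284, plus strand: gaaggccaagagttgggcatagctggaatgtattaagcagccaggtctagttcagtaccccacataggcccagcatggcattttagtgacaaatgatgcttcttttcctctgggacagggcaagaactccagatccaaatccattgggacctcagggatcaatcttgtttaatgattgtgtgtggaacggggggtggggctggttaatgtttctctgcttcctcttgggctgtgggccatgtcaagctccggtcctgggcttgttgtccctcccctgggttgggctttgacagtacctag
Kcnj16 used start, chr11:110997237-110997536, plus strand: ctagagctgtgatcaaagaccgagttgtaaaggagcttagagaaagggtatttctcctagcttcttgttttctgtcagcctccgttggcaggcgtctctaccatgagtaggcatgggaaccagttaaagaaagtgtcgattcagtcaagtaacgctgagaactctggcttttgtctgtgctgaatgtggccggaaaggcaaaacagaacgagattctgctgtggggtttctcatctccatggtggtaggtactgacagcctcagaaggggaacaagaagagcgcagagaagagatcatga
Gja1 start, chr10:56377050-56377349, plus strand: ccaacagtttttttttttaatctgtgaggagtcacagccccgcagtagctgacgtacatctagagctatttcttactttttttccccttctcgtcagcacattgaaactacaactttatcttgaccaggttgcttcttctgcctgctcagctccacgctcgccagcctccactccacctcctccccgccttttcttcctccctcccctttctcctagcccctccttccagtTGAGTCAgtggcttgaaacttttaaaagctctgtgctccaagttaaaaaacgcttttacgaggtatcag
The used Gjb1 window held ACAAAG at position -57 and TATAAA at -29, counted from the start site. Of the annotated Gjb1 starts with few reads, the window printed held neither, while that of Gjb1-202, not printed, held ACAAAG at -176. The Gja1 window held TGAGTCA at -19, and the Kcnj16 window held none of the 3. Of 18 windows of the members, 5 held ACAAAG, 2 held TATAAA and 2 held TGAGTCA, against 18.7%, 13.6% and 5.2% of 32851 windows of all genes. A match is a description of the letters, and no binding was measured in these samples.

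The remaining transcripts call for caution in 4 genes. Kcnk2 split its TPM between Kcnk2-202 (37.5% in hypothalamus) and Kcnk2-205 (42.0%), with 7.31% on a transcript annotated for nonsense-mediated decay. Gjb6-203, of 201 bases, took 14.9% of Gjb6 TPM in hypothalamus but 0.255% of its reads. Since short transcripts weigh heavily in TPM, the level of each gene was compared between regions and diets on reads; the ratios below use TPM, and their counts of calls are also given with CPM. Kcnk2 overlaps the opposite-strand gene A430027H14Rik over 1467 bases, and Kcnk1 overlaps Gm45875. The libraries do not mark strand, so reads in an overlap cannot be assigned with certainty. These partners held 8766 and 33 reads over all libraries. Of the 31-base words in a member's transcripts, 10.6% for Kcnk2, 7.11% for Gjc3, 6.67% for Kcnk1 and at most 1.65% for the other 6 also occur in another gene.

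Gja1 was the most abundant member in hypothalamus and cortex, with a median TPM on SC of 382 in hypothalamus and 853 in cortex. In hippocampus on SC the oligodendrocyte connexin Gjb1 led with a median TPM of 403, followed by Gjc3 at 186, Kcnk1 at 151 and Gja1 at 143. In cortex on SC, Gja1 was followed by Gjb6 at 624, Kcnk1 at 348, Kcnj16 at 91.8, Gjb1 at 59.5, Gjc3 at 36.8, Kcnj10 at 30.3, Kcnk2 at 19.0 and Gjb2 at 7.94. In hypothalamus on SC, Gjb1 at 149, Gjb6 at 146 and Gjc3 at 113 came next after Gja1, with overlapping ranges, and then Kcnk1 at 39.8, Kcnj16 at 36.7, Kcnj10 at 22.3, Kcnk2 at 11.5 and Gjb2 at 5.01. Gja1 TPM exceeded Kcnj10 TPM in 35 of 35 libraries. Over the whole series Kcnj10 TPM varied least, 3.83-fold from its lowest to its highest library, followed by Kcnk2 at 5.93-fold, while Gja1 varied 25.1-fold and Gjb6 82.4-fold.

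**Figure D1:**
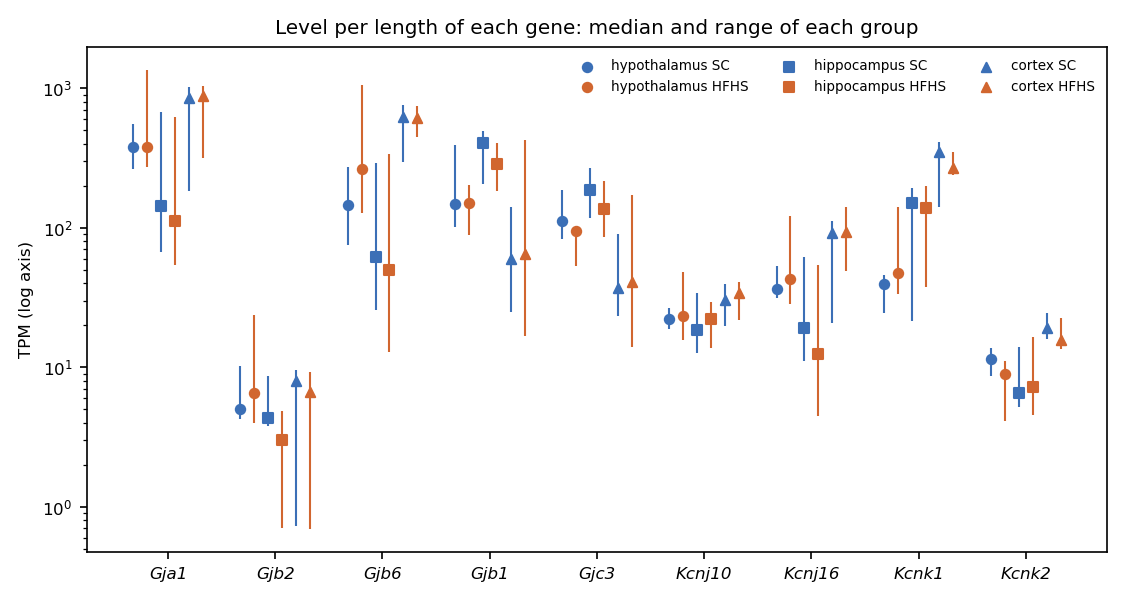
TPM of the 9 genes (log axis) in each group. Points are group medians and lines run from the lowest to the highest library of the group. Gja1 has the highest median in hypothalamus and cortex, and Gjb1 the highest in hippocampus.

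For the comparisons, the value of a gene in a library is its count per library size in the unit CPM, scaled with edgeR's TMM factors (normalised CPM); it is not corrected for gene length and is read only within a gene. A gene was called where the adjusted p of edgeR's quasi-likelihood test, with Benjamini-Hochberg adjustment over all genes tested, was below 0.05. In SC animals, 6 of the 9 members were lower in hypothalamus than in cortex (background: 18.3% of all genes tested were lower) and none was higher (17.7%); in either direction 36.1% of all genes were called. In hippocampus 6 of 9 were lower than in cortex (15.3%), and the oligodendrocyte connexins Gjb1 and Gjc3 were higher (15.4%), with 30.8% of all genes called in either direction. The groups did not overlap for 5 members in each of these comparisons, against 18.9% and 17.7% of all genes. Between hypothalamus and hippocampus on SC only Kcnk1 was called, lower in hypothalamus (4.13% of all genes were lower, 5.86% higher and 10.0% either), and no member had groups apart (10.7% of all genes). The other 8 were at 0.59 for Gja1, 0.08 for Gjb2, 0.43 for Gjb6, -0.99 for Gjb1, -0.83 for Gjc3, 0.01 for Kcnj10, 0.57 for Kcnj16 and 0.22 for Kcnk2, on the log2 scale (edgeR adjusted p = 0.146 to 0.992). The comparisons with cortex share the cortex libraries, and those of 1 diet share libraries throughout. The median log2 difference of the members was -1.41 between hypothalamus and cortex and -1.72 between hippocampus and cortex, against 0.06 and 0.04 over all genes. Scaling to library size moved the median of all genes up by 0.36 and 0.22 in these comparisons and by at most 0.21 in the others. Under it the genes called higher in hypothalamus than in cortex on SC went from 3827 of 7782 to 5823 of 7855, and in hippocampus from 3332 of 6636 to 4332 of 6518. Those higher in hypothalamus than in hippocampus went from 1265 of 2157 to 1608 of 2066. On HFHS they went from 3160 of 5146 to 3963 of 5169 in hypothalamus minus cortex and from 2895 of 5222 to 3583 of 5357 in hippocampus minus cortex. No called member changed direction under this scaling.

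**Figure D2:**
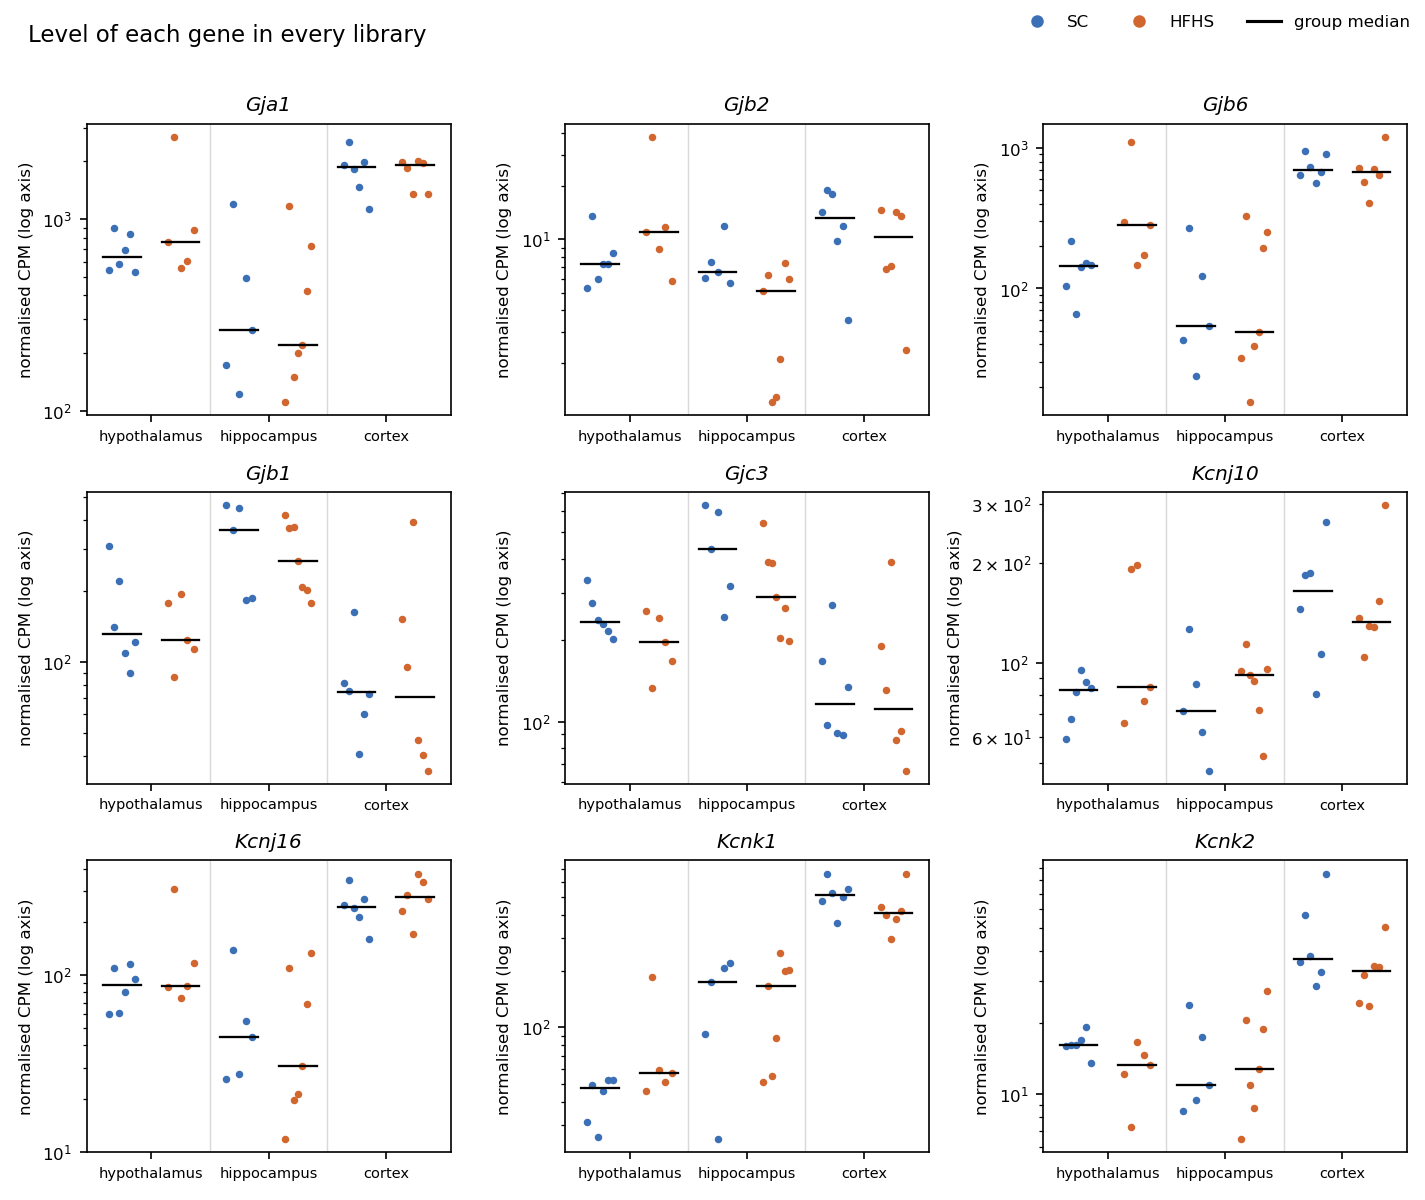
Normalised CPM (log axis) of each gene in every library, by region and diet; points are libraries and lines are group medians. Cortex has the highest medians for Gjb6, Kcnj16 and Kcnk1, hippocampus those for Gjb1 and Gjc3, and hypothalamus HFHS replicate 2 stands above its group for Gja1, Gjb6, Kcnj16 and Kcnk1.

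Gja1 (chr10:56377330-56402513, plus strand) was lower outside the cortex. Its normalised CPM on SC ran from 530 to 898 in hypothalamus with a median of 637, and from 1129 to 2525 in cortex with a median of 1874. The 5 hippocampus libraries on SC, in replicate order, held 174, 1204, 122, 493 and 265. No hypothalamus library reached the cortex range, whereas 1 hippocampus library, replicate 2, entered it at the lower end. The log2 difference from cortex was -1.41 (SE 0.49, edgeR adjusted p = 0.0244) in hypothalamus and -2.0 (SE 0.54, edgeR adjusted p = 0.00501) in hippocampus. Without hippocampus SC replicate 2 the hippocampus difference was -2.78 (edgeR adjusted p = 0.00036). Without cortex SC replicate 2, the hypothalamus difference was -1.29 (edgeR adjusted p = 0.0518). It was -1.07 (edgeR adjusted p = 0.0822) with scaling to library size, and -0.80 (limma adjusted p = 0.228) on log2(TPM + 0.1).

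Gjb6 (chr14:57123303-57133611, minus strand), the second astrocyte connexin, followed the same order of regions with wider gaps. On SC it ran from 65.6 to 219 normalised CPM in hypothalamus with a median of 145 and from 567 to 957 in cortex with a median of 702. The hippocampus libraries held 42.7, 270, 24.0, 123 and 53.6. Every library of hypothalamus and hippocampus lay below every cortex library. The log2 differences from cortex were -2.43 (SE 0.61, edgeR adjusted p = 0.00211) in hypothalamus and -2.86 (SE 0.67, edgeR adjusted p = 0.00155) in hippocampus, the latter -3.62 (edgeR adjusted p = 0.00036) without hippocampus SC replicate 2.

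Gjb2 (chr14:57098600-57104702, minus strand), the minor astrocyte connexin, lies next to Gjb6 and was at most 38.1 normalised CPM in any library. On SC it ran from 5.29 to 13.6 in hypothalamus (median 7.28) and from 3.51 to 18.9 in cortex (median 13.1). The hippocampus libraries held 6.05, 7.42, 6.52, 11.9 and 5.67. The groups overlapped broadly, and neither difference from cortex was called, at -0.69 (SE 0.47, edgeR adjusted p = 0.263) and -0.77 (SE 0.49, edgeR adjusted p = 0.246).

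On HFHS, Gja1 and Gjb6 were called in hippocampus minus cortex and not in hypothalamus minus cortex. Gja1 held 757, 2691, 556, 603 and 881 normalised CPM in the 5 hypothalamus libraries, 1358 to 2019 in cortex (median 1906) and 111 to 1168 in hippocampus (median 219). Hypothalamus replicate 2 lay above every cortex library, and the other 4 below all of them. The log2 difference from cortex was -0.68 (SE 0.51, edgeR adjusted p = 0.376) in hypothalamus and -2.04 (SE 0.48, edgeR adjusted p = 0.00192) in hippocampus, where no library reached the cortex range. Gjb6 held 297, 1094, 148, 172 and 283 in hypothalamus, 406 to 1201 in cortex (median 674) and 15.5 to 328 in hippocampus (median 48.9). Hypothalamus replicate 2 was again the one library within the cortex range. The Gjb6 differences were -0.83 (SE 0.62, edgeR adjusted p = 0.363) and -2.45 (SE 0.58, edgeR adjusted p = 0.00202). Without hypothalamus replicate 2 the hypothalamus differences were -1.33 for Gja1 (edgeR adjusted p = 0.0643) and -1.65 for Gjb6 (edgeR adjusted p = 0.0566), also not called. The other members not called in this comparison were Gjb2 at 0.62, Gjb1 at 0.13, Gjc3 at 0.33 and Kcnj10 at -0.36 (edgeR adjusted p = 0.393 to 0.877), with Kcnj16 given below. With the replicate number as a block, edgeR called 5 members here in place of 2, and 5562 of 21574 genes. That a region difference was called on 1 diet and not on the other does not show that it differed between diets: the difference itself, tested as an interaction below, was not called for any member.

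Gjb2 was the one member called between hypothalamus and hippocampus on HFHS (4.24% of all genes were higher in hypothalamus, 2.18% lower and 6.42% either), and for no member were these groups apart (5.54% of all genes). Of the others, Gja1 was at 1.36, Gjb6 at 1.62, Kcnj16 at 1.25, Kcnj10 at 0.50, Gjb1 at -1.05, Gjc3 at -0.70 and Kcnk2 at -0.24 (edgeR adjusted p = 0.091 to 0.737), with Kcnk1 given below. The hypothalamus libraries held 11, 38.1, 8.84, 11.8 and 5.80 normalised CPM and the hippocampus libraries 1.20 to 7.37 with a median of 5.08. The groups overlapped through the lowest hypothalamus library. The log2 difference was 1.85 (SE 0.47, edgeR adjusted p = 0.0147), and 1.16 (edgeR adjusted p = 0.155) without hypothalamus replicate 2. Against cortex, which ran from 2.38 to 14.7 with a median of 10.3, hippocampus Gjb2 was lower by a log2 difference of -1.23 (SE 0.45, edgeR adjusted p = 0.0445). Without hippocampus replicate 2, 3 more members were called between hypothalamus and hippocampus, Gja1 at 1.85 (edgeR adjusted p = 0.015), Gjb6 at 2.04 (edgeR adjusted p = 0.0341) and Kcnj16 at 1.5 (edgeR adjusted p = 0.04999). Kcnj16 was also called without hippocampus replicate 7, at 1.62 (edgeR adjusted p = 0.0278). With the replicate number as a block, edgeR called 6 members between these regions in place of 1, and 2597 of 21574 genes. The Gjb2 call against cortex was lost when hippocampus replicate 1, 3, 4 or 5 or cortex replicate 1, 4 or 5 was left out, with values from -1.28 to -1.06.

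The oligodendrocyte connexins ran the other way, with the highest values in hippocampus and the lowest in cortex. On SC, Gjb1 ran from 89.3 to 309 normalised CPM in hypothalamus (median 131) and from 40.8 to 162 in cortex (median 74.4), and the hippocampus libraries held 460, 360, 446, 183 and 187. Every hippocampus library lay above every cortex library, whereas hypothalamus overlapped both. The difference of hippocampus from cortex was 1.99 (SE 0.47, edgeR adjusted p = 0.00178), and that of hypothalamus was 1.0 (SE 0.45, edgeR adjusted p = 0.0766). With the replicate number as a block, which pairs hypothalamus and cortex on SC, the hypothalamus difference was called at 0.99 (edgeR adjusted p = 0.00761). It was also called with cortex SC replicate 3 left out (1.32, edgeR adjusted p = 0.0261) and with cortex HFHS replicate 3 left out (1.0, edgeR adjusted p = 0.0314).

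Gjc3 (chr5:137953461-137963098, minus strand) gave the same order. On SC it ran from 202 to 335 normalised CPM in hypothalamus (median 234) and from 89.4 to 270 in cortex (median 116), and the hippocampus libraries held 630, 434, 592, 245 and 316. The hippocampus and cortex groups overlapped only through hippocampus replicate 4 and cortex replicate 3. The difference from cortex was 1.64 (SE 0.36, edgeR adjusted p = 0.000956) in hippocampus. In hypothalamus it was 0.81 (SE 0.34, edgeR adjusted p = 0.063), and 0.92 (edgeR adjusted p = 0.00392) with the replicate block. Leaving out replicate 3 of cortex SC gave 1.1 for hypothalamus (edgeR adjusted p = 0.0139). Leaving out replicate 3 or 6 of cortex HFHS, which changes only the shared spread, gave 0.81 (edgeR adjusted p = 0.0292 and 0.0479). Replicate 3 of both cortex groups held the highest Gjb1, the highest Gjc3 and the highest summed oligodendrocyte markers of its group.

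On HFHS, Gjb1 ran from 177 to 417 normalised CPM in hippocampus (median 267) and from 34.6 to 391 in cortex (median 70.7), and Gjc3 from 199 to 543 (median 289) and from 66.2 to 391 (median 112). The single cortex library at 391 for both genes, replicate 3, lay inside the hippocampus ranges. The differences were 1.18 for Gjb1 (SE 0.44, edgeR adjusted p = 0.0448) and 1.03 for Gjc3 (SE 0.34, edgeR adjusted p = 0.0242), where 13.4% of all genes were higher. Both calls depended on single libraries. Without cortex HFHS replicate 3 the Gjb1 difference was 1.96 (edgeR adjusted p = 0.000398). Its call was lost on leaving out hippocampus replicate 1, 2, 3 or 4, cortex replicate 1, 2, 4, 5 or 6, or hypothalamus replicate 1 of the same diet, with values of 0.99 to 1.24. The Gjc3 call was lost on leaving out hippocampus replicate 1 or cortex replicate 2, 4, 5 or 6, with values of 0.85 to 0.98. Without the 3 libraries of shorter transcripts the differences were 0.93 (edgeR adjusted p = 0.123) and 0.82 (edgeR adjusted p = 0.0802).

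**Figure D3:**
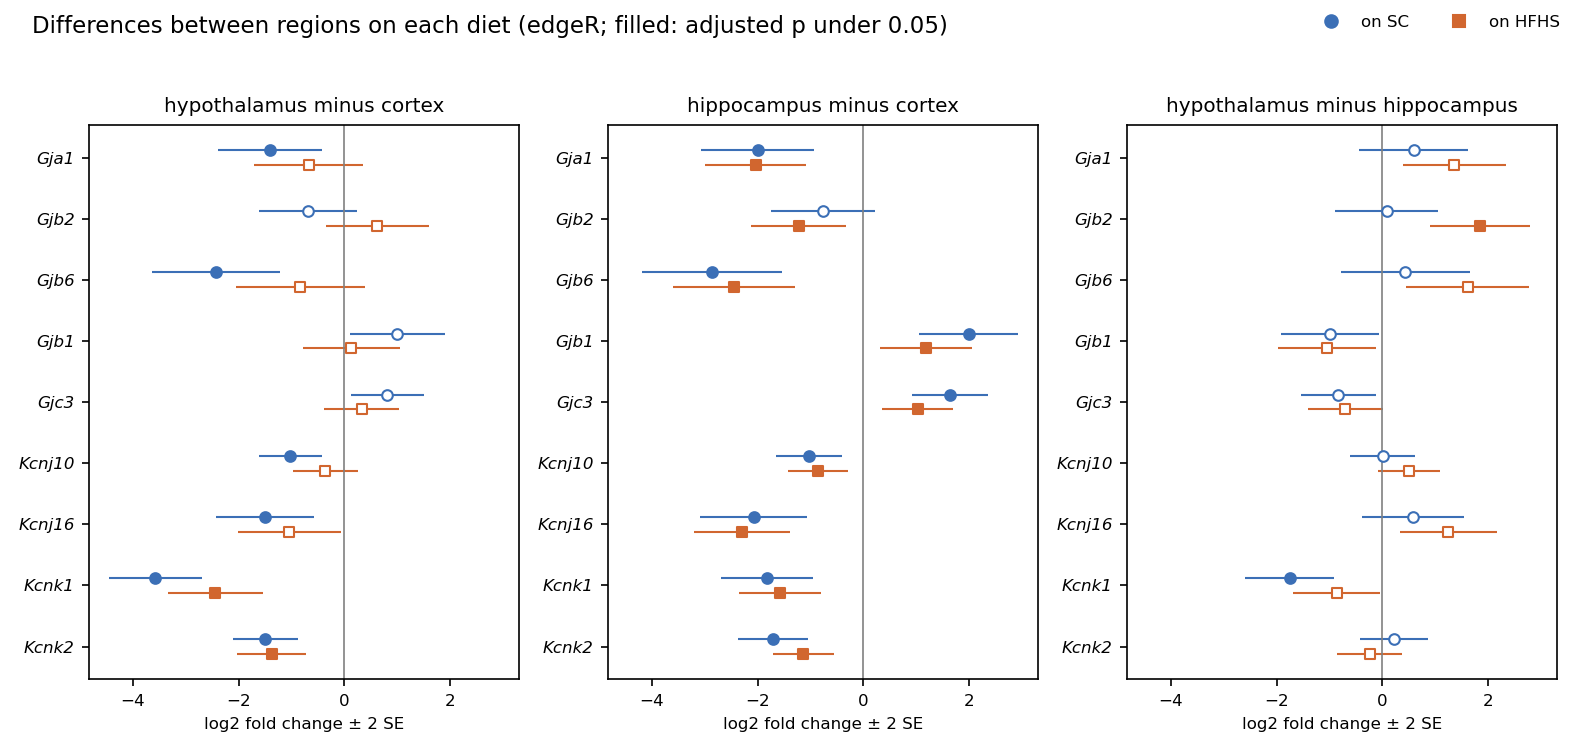
log2 difference of each gene between regions on each diet, with bars of 2 standard errors; filled points were called by edgeR. The astrocyte genes lie below 0 and the oligodendrocyte connexins above 0 in hippocampus minus cortex on both diets, and Kcnk1 lies lowest in hypothalamus minus cortex.

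The inward rectifier subunits were lower outside the cortex on SC. Kcnj16 ran from 60.5 to 116 normalised CPM in hypothalamus (median 88.1) and from 160 to 347 in cortex (median 244), and the hippocampus libraries held 26, 139, 27.5, 55.1 and 44.7. No library of either region reached the cortex range. The differences from cortex were -1.50 (SE 0.47, edgeR adjusted p = 0.0118) in hypothalamus and -2.07 (SE 0.51, edgeR adjusted p = 0.00242) in hippocampus. Without hippocampus SC replicate 2, the highest of its group, the latter was -2.68 (edgeR adjusted p = 0.000353). On log2(TPM + 0.1) the hypothalamus difference was -0.90 (limma adjusted p = 0.148).

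Kcnj10 (chr1:172341210-172374085, plus strand), the pore subunit that Kcnj16 joins, moved less. On SC it ran from 58.9 to 95.5 normalised CPM in hypothalamus (median 83.0) and from 80.7 to 265 in cortex (median 164), and the hippocampus libraries held 71.7, 126, 86.6, 62.1 and 47.5. The groups overlapped at the lower end of the cortex range. The differences were -1.02 (SE 0.30, edgeR adjusted p = 0.00708) in hypothalamus and -1.03 (SE 0.31, edgeR adjusted p = 0.0124) in hippocampus. They depended on scale: on log2(TPM + 0.1) they were -0.35 (limma adjusted p = 0.273) and -0.51 (limma adjusted p = 0.131), and with scaling to library size the hypothalamus value was -0.58 (edgeR adjusted p = 0.0639).

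On HFHS both subunits were lower in hippocampus than in cortex. Kcnj16 ran from 11.8 to 133 normalised CPM in hippocampus (median 30.7) and from 171 to 374 in cortex (median 275), without overlap, a difference of -2.29 (SE 0.45, edgeR adjusted p = 0.000348). Kcnj10 ran from 52.6 to 114 (median 91.7) and from 104 to 297 (median 133), a difference of -0.86 (SE 0.28, edgeR adjusted p = 0.0242). The Kcnj10 groups met at 104 to 114, and the highest cortex value belonged to replicate 6, a library of shorter transcripts. Without that library the Kcnj10 difference was -0.58 (edgeR adjusted p = 0.123), and without hippocampus replicate 6 it was -0.77 (edgeR adjusted p = 0.0539). In hypothalamus, Kcnj16 held 85.6, 308, 74.1, 86.7 and 117, and Kcnj10 held 66.2, 191, 197, 77.0 and 84.6. Replicate 2 was the only hypothalamus library inside the cortex range for Kcnj16. The Kcnj16 difference from cortex was -1.04 (SE 0.49, edgeR adjusted p = 0.124) with it and -1.60 (edgeR adjusted p = 0.019) without it.

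Kcnk1 (chr8:125995170-126030685, plus strand) showed the largest region difference of the 9 genes. On SC it ran from 26 to 52.1 normalised CPM in hypothalamus (median 47.5) and from 363 to 658 in cortex (median 512), and the hippocampus libraries held 92.2, 176, 25.2, 209 and 220. Hypothalamus and cortex lay far apart, and hippocampus lay between them with 1 library, replicate 3, at the hypothalamus level. The log2 difference of hypothalamus from cortex was -3.58 (SE 0.44, edgeR adjusted p = 1.13e-07), an 11.9-fold lower level. Hippocampus differed from cortex by -1.82 (SE 0.44, edgeR adjusted p = 0.00206), and hypothalamus from hippocampus by -1.75 (SE 0.42, edgeR adjusted p = 0.00697).

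On HFHS, Kcnk1 held 45.7, 185, 58.9, 51.0 and 56.7 normalised CPM in hypothalamus, 51.0 to 248 in hippocampus (median 167) and 298 to 663 in cortex (median 409). Neither hypothalamus nor hippocampus reached the cortex range. On this diet 2 of 9 members were lower in hypothalamus than in cortex (9.21% of all genes) and none was higher (14.6%, and 23.9% either), with no overlap for 2 members (13.7% of all genes). In hippocampus 7 of 9 were lower (10.8%) and 2 higher (13.4%, and 24.2% either), with no overlap for 4 (6.8%). The Kcnk1 differences from cortex were -2.45 (SE 0.45, edgeR adjusted p = 0.0001) and -1.58 (SE 0.39, edgeR adjusted p = 0.0029). Hypothalamus minus hippocampus was -0.86 (SE 0.41, edgeR adjusted p = 0.229), and -1.45 (edgeR adjusted p = 0.0418) without hypothalamus replicate 2. The hippocampus libraries also held markers of the choroid plexus, the epithelium that secretes cerebrospinal fluid. Their summed TPM was highest in SC replicate 5 (49085, Kcnk1 220 normalised CPM) and in HFHS replicate 5 (46524, Kcnk1 248), each the highest Kcnk1 library of its group, and lowest among the SC hippocampus libraries in replicate 3 (2769, Kcnk1 25.2), which also had the lowest astrocyte marker sum of its group, 891. The order was not the same throughout: SC replicate 1 held 21958 beside a Kcnk1 of 92.2 and SC replicate 2 held 11076 beside 176, and HFHS replicate 2, with the lowest sum of its group at 8140, was at the group's median Kcnk1. The part of these cells in the hippocampus level was not tested.

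Kcnk2 (chr1:189207930-189402273, minus strand), the stretch-sensitive relative of Kcnk1, was also highest in cortex. On SC it ran from 13.6 to 19.2 normalised CPM in hypothalamus (median 16.1) and from 28.6 to 84.8 in cortex (median 37.1), and the hippocampus libraries held 8.55, 23.8, 9.44, 17.4 and 11. All hypothalamus and hippocampus libraries lay below the cortex range. The differences were -1.50 (SE 0.31, edgeR adjusted p = 0.000267) and -1.72 (SE 0.33, edgeR adjusted p = 0.000254). On HFHS the hypothalamus libraries held 12.2, 7.26, 16.6, 14.7 and 13.4, hippocampus ran from 6.48 to 27.3 (median 12.8) and cortex from 23.6 to 50.5 (median 33). Hypothalamus stayed apart from cortex and hippocampus overlapped it. The differences were -1.37 (SE 0.33, edgeR adjusted p = 0.00203) and -1.13 (SE 0.29, edgeR adjusted p = 0.00443). Hypothalamus HFHS replicate 2, the highest library of its group for Gja1, Gjb2, Gjb6, Kcnj16 and Kcnk1 and for the astrocyte marker sum, was the lowest for Kcnk2.

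Ratios within a library do not depend on scaling between libraries. For 6 ratios between members and 9 ratios of a member to the mean log2(TPM + 0.1) of the markers of its cell type, the difference in mean log2 ratio was tested in 9 comparisons with an exact two-sided permutation test. After Benjamini-Hochberg adjustment over these 135 tests, 25 were called, and 36 with CPM in place of TPM. These tests take the libraries as unpaired. With sign flips within the 6 same-numbered pairs of hypothalamus and cortex on SC, added after the data were seen, p cannot go below 0.0312 and none of the 9 calls of that comparison passed the adjustment (adjusted p = 0.0959 for each in this exact paired test), although 6 of 6 pairs went the same way for each of the 9. Of the 135 tests, 9 were then called: Kcnk1 to the markers in hypothalamus minus hippocampus on both diets and minus cortex on HFHS, Gjb6 to the markers in hippocampus minus cortex on both diets, Gjb6 to Gja1 and Gjb2 to Gjb6 in hippocampus minus cortex on SC, Kcnj16 to the markers in hypothalamus minus hippocampus on SC, and Gjb2 to the markers in hypothalamus minus cortex on HFHS. Tests outside hypothalamus minus cortex on SC were not paired and kept their p-values, so their calls changed only through the shared adjustment. The ratios of Kcnj16 to Kcnj10 and of Gjb1 to Gjc3 were called in no comparison.

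Kcnk1 stood low in hypothalamus also relative to the astrocyte markers. Its log2 ratio on SC ran from -1.66 to -1.22 in hypothalamus, from -0.34 to 0.30 in cortex and from -0.66 to 1.45 in hippocampus. The hypothalamus libraries lay below all others. The mean differences were -1.32 from cortex and -1.81 from hippocampus on SC (exact permutation, adjusted p = 0.0225 for both). On HFHS, in separate libraries, they were -1.34 (exact permutation, adjusted p = 0.0225) and -1.91 (exact permutation, adjusted p = 0.0244), again without overlap. The call against hippocampus was lost on leaving out any of 5 libraries on SC and 1 on HFHS, and that against cortex on HFHS in 4 cases, with adjusted p at most 0.0536, since fewer libraries raise the smallest p. In hippocampus the ratio was highest in replicate 5 of each diet, at 1.45 on SC and 1.91 on HFHS. These held the highest choroid plexus sums of their groups. It was lowest in SC replicate 3 (-0.66) and HFHS replicate 2 (-0.61), which held the lowest sums. Between these the order differed: HFHS replicate 3 was at 0.72 beside a sum of 9442, and replicate 7 at -0.36 beside 22514. The part of choroid plexus cells in the difference from hippocampus was not tested.

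Other astrocyte members had a higher ratio to the markers in hypothalamus than in cortex on SC. There the ratio of Kcnj16 to the markers was -1.47 to -1.19 in hypothalamus and -2.45 to -1.83 in cortex, without overlap, a difference of 0.81 (exact permutation, adjusted p = 0.0225). That of Gja1 was higher by 0.91 (exact permutation, adjusted p = 0.0344), that of Kcnj10 by 1.36 (exact permutation, adjusted p = 0.0344) and that of Gjb2 by 1.71 (exact permutation, adjusted p = 0.0225). On HFHS only the Gjb2 ratio of these 4 was called in this comparison, at 1.80 (exact permutation, adjusted p = 0.0225). Those of Kcnj16, Gja1 and Kcnj10 differed by 0.08 (exact permutation, adjusted p = 0.718), 0.38 (exact permutation, adjusted p = 0.0663) and 0.86 (exact permutation, adjusted p = 0.0974). For Gjb6 the ratio to markers was called in hippocampus minus cortex alone, at -0.78 on SC (exact permutation, adjusted p = 0.0225) and -0.92 on HFHS (exact permutation, adjusted p = 0.0262). Of 35 libraries left out in turn, 2 ended the call of Gja1, 3 that of Kcnj10, none that of Kcnj16 or Gjb2, and 4 and 1 those of Gjb6. The ratios do not account for reads from other cells. Summed TPM of 10 ependymal markers on SC ran from 3544 to 6594 in hypothalamus and from 90.4 to 382 in cortex. For 9 oligodendrocyte precursor markers it ran from 199 to 493 and from 4.28 to 22.0. The sums of microglia, endothelial, mural, fibroblast, tanycyte, choroid plexus and neuron markers overlapped between these groups. The part of these cells in the ratios was not tested.

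The pair of main astrocyte connexins was unequal across regions. On SC the log2 ratio of Gjb6 to Gja1 ran from -2.34 to -0.90 in hypothalamus, from -1.36 to -1.0 in hippocampus and from -0.58 to 0.68 in cortex. The cortex value of 0.68 was that of replicate 6, a library of shorter transcripts, and the next highest was -0.31. Every cortex library lay above every library of the other regions. The differences from cortex were -1.16 in hypothalamus and -0.94 in hippocampus (exact permutation, adjusted p = 0.0225 for both); the latter call was lost in 4 of 35 cases of 1 library left out. On HFHS the ratio was not called in any region pair. The ratio of Gjb2 to Gjb6 on SC was higher than in cortex by 1.95 in hypothalamus and by 2.73 in hippocampus (exact permutation, adjusted p = 0.0225 for both). The ratio of the two-pore channels, Kcnk2 to Kcnk1, was 2.27 higher in hypothalamus than in cortex on SC (exact permutation, adjusted p = 0.0225), with -2.20 to -0.96 against -4.32 to -2.66. Cortex SC replicate 6 again held the highest cortex value, and the next highest was -4.08. On HFHS the difference was 1.31 and not called (exact permutation, adjusted p = 0.11).

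The oligodendrocyte connexins, in contrast, kept close to the oligodendrocyte markers. Group means of the log2 ratio of Gjb1 to the markers lay between -2.10 in cortex on HFHS and -1.73 in hippocampus on SC, and no region difference was called for Gjb1 or Gjc3. On SC, hippocampus minus cortex was 0.24 for Gjb1 (exact permutation, adjusted p = 0.175) and -0.18 for Gjc3 (exact permutation, adjusted p = 0.196), where their normalised CPM had differed by 1.99 and 1.64.

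**Figure D4:**
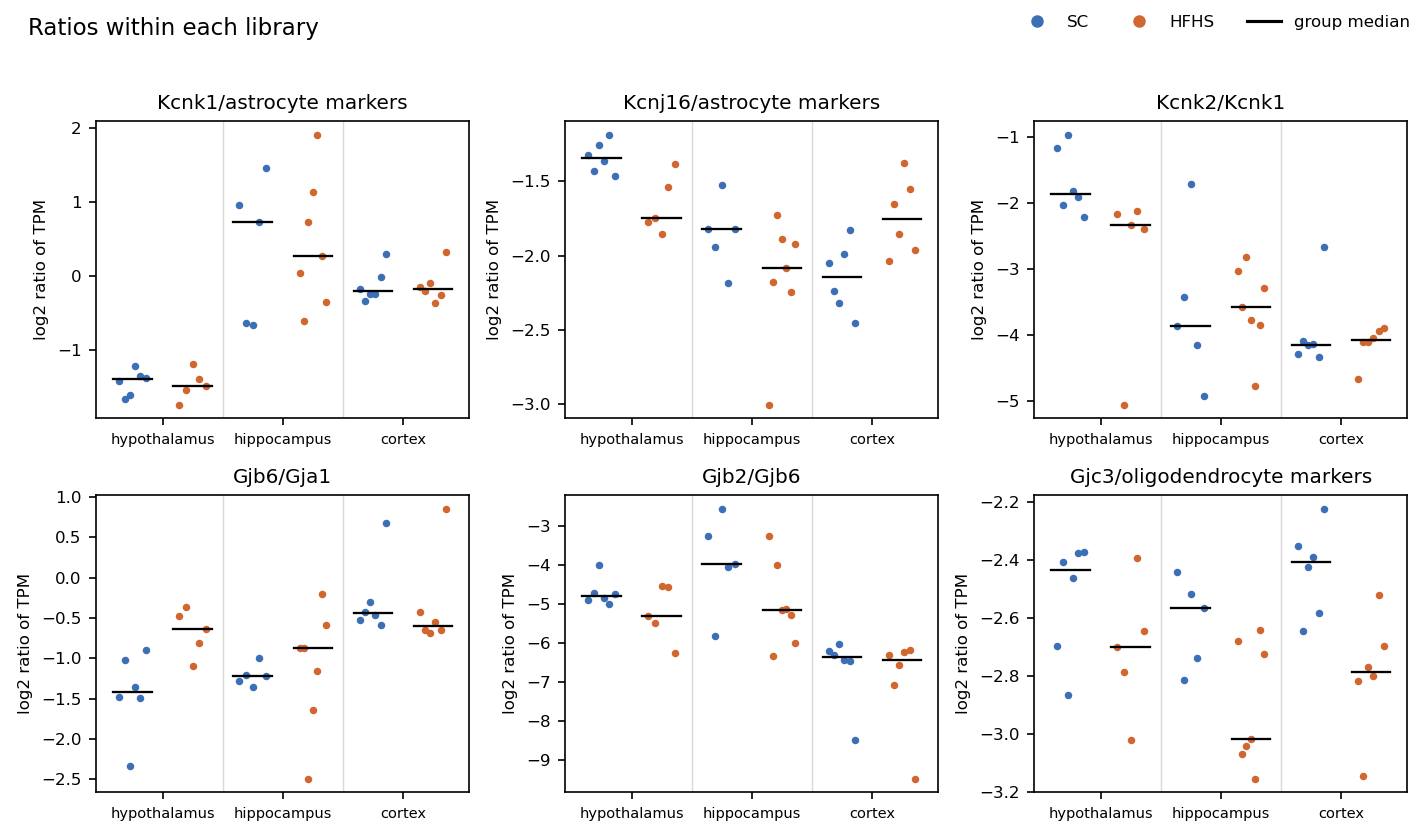
log2 ratios of TPM in each library by region and diet. Points are libraries and lines are group medians. The ratio of Kcnk1 to the astrocyte markers in hypothalamus lies below all cortex and hippocampus libraries on both diets.

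The diet comparison asks whether these genes differ between HFHS and SC within a region. None of the 9 members was called by edgeR in hypothalamus, hippocampus or cortex, where 0.0% of all genes tested were called. At an unadjusted p under 0.05 there were 4, 0 and 0 of the 9 members, against 1639 of 19272, 984 of 19036 and 1652 of 17844 genes tested. DESeq2 called 89, 14 and 476 genes of all tested and no member. In cortex edgeR called 515 genes without the 3 libraries of shorter transcripts and 412 with the replicate block, and voom with quality weights 519, none a member. In no region did the 2 diet groups fail to overlap for any member, against 0.856%, 0.341% and 0.925% of all genes.

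In hypothalamus the fitted differences of the astrocyte connexins and of 3 of the 4 channels were above 0, by edgeR. Gjb6, with 65.6 to 219 normalised CPM on SC and 148 to 1094 on HFHS, had the largest, 1.52 (SE 0.47, adjusted p = 0.473), an interval of 2 SE from 0.57 to 2.46. Gjb2 was at 0.92 (SE 0.42, edgeR adjusted p = 0.581), Kcnk1 at 0.88 (SE 0.35, edgeR adjusted p = 0.518), Gja1 at 0.68 (SE 0.37, edgeR adjusted p = 0.663), Kcnj10 at 0.62 (SE 0.28, edgeR adjusted p = 0.574) and Kcnj16 at 0.62 (SE 0.35, edgeR adjusted p = 0.676). Without HFHS replicate 2, which also held the highest astrocyte marker sum, 9844, all 6 were lower: 0.70 for Gjb6, 0.23 for Gjb2, 0.30 for Kcnk1, 0.04 for Gja1, 0.41 for Kcnj10 and 0.06 for Kcnj16. The remaining members were below 0, Gjb1 at -0.26, Gjc3 at -0.33 and Kcnk2 at -0.36 (SE 0.20, edgeR adjusted p = 0.671). The median of the 9 was 0.62 against -0.01 over all genes.

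In hippocampus the fitted diet differences of the members ran from -0.86 for Gjb2 (SE 0.46, edgeR adjusted p = 0.876) to 0.31 for Gjb6 (SE 0.78, edgeR adjusted p = 0.956). The intervals were wide: that of Gja1, at -0.11, ran from -1.44 to 1.22 at 2 SE. Between these lay Gjc3 at -0.45, Gjb1 at -0.20, Kcnj16 at -0.09, Kcnk1 at -0.03, Kcnk2 at 0.07 and Kcnj10 at 0.13 (edgeR adjusted p = 0.876 to 0.997). In cortex they ran from -0.43 for Kcnk2 (SE 0.29, edgeR adjusted p = 0.731) to 0.65 for Gjb1 (SE 0.56, edgeR adjusted p = 0.821). Gja1 was at -0.01 with an interval from -0.45 to 0.44, and Gjb6 at -0.04 with one from -0.54 to 0.46. Gjb2 was at -0.34, Kcnk1 at -0.20, Kcnj10 at 0.01, Gjc3 at 0.20 and Kcnj16 at 0.21 (edgeR adjusted p = 0.866 to 0.996). The cortex intervals of these astrocyte connexins exclude a change of 1 log2 unit in either direction, and their hippocampus intervals do not.

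**Figure D5:**
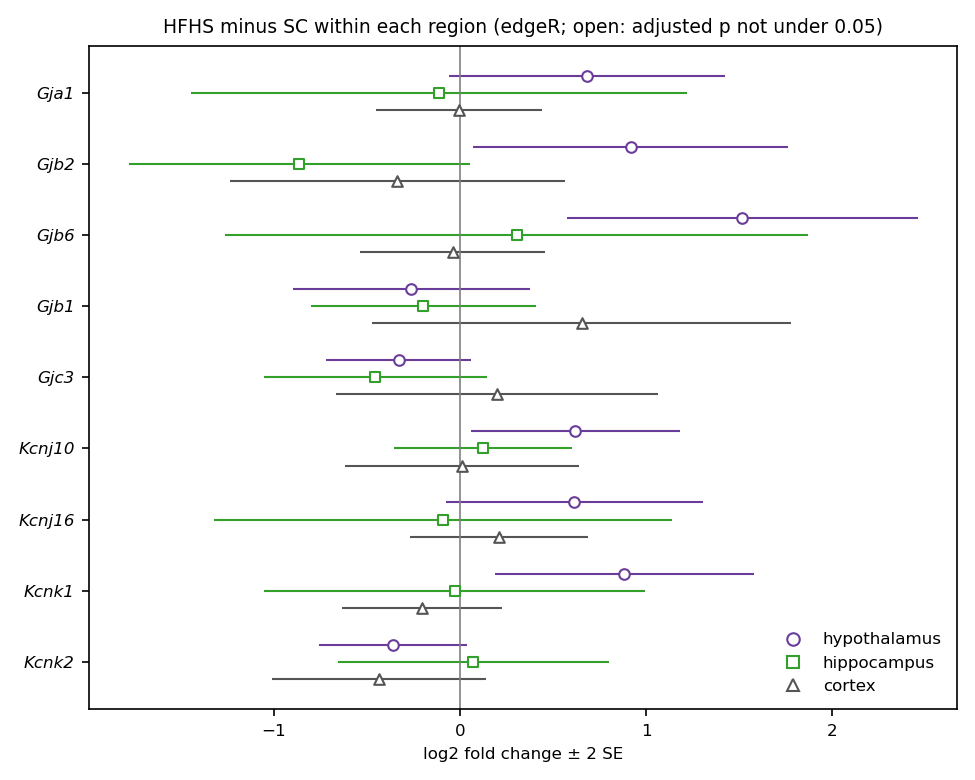
log2 difference HFHS minus SC of each gene in the 3 regions, with bars of 2 standard errors. No gene was called; in hypothalamus Gjb6 lies highest at 1.52, and the hippocampus bars of Gja1, Gjb6 and Kcnj16 are the longest.

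Whether the diet effect differed between regions was tested with interaction terms. No member and 0.0% of all genes were called by edgeR. The terms were hypothalamus minus cortex, hippocampus minus cortex and hypothalamus minus hippocampus. At an unadjusted p under 0.05 they held, in this order, 0, 0 and 1 of the 9 members, against 2496, 2007 and 433 of 21574 genes. DESeq2 called 125, 23 and 4 genes, with no member. For hypothalamus minus cortex edgeR called 475 genes without the 3 libraries of shorter transcripts and 299 with the replicate block, and voom 598, again no member. The members with the smallest p were Kcnk1 at 1.13 (SE 0.58, edgeR adjusted p = 0.446), Kcnk2 at 0.58 (SE 0.43, edgeR adjusted p = 0.667) and Gjb2 at 1.77 (SE 0.68, edgeR adjusted p = 1), in that order.

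Of the 45 diet tests on ratios, 3 were called, and each was lost on leaving out single libraries. In hypothalamus the log2 ratio of Kcnk2 to Kcnk1 ran from -2.20 to -0.96 on SC and from -5.05 to -2.11 on HFHS, a difference of -1.14 (exact permutation, adjusted p = 0.0468). That of Kcnj16 to the astrocyte markers ran from -1.47 to -1.19 and from -1.86 to -1.38, a difference of -0.32 (exact permutation, adjusted p = 0.0468). In cortex the ratio of Gjc3 to the oligodendrocyte markers ran from -2.64 to -2.22 on SC and from -3.15 to -2.52 on HFHS, a difference of -0.36 (exact permutation, adjusted p = 0.0468), and with CPM -0.31 (exact permutation, adjusted p = 0.0524). The groups overlapped in all 3. Leaving out 1 library at a time ended these calls in 21, 21 and 20 of 35 cases. The diet tests themselves were not paired. With the paired p-values of hypothalamus minus cortex on SC in the shared adjustment, the adjusted p of each was 0.0731 (exact permutation), while its unadjusted p was unchanged. Without hypothalamus HFHS replicate 2 the Kcnk2 to Kcnk1 difference was -0.57.

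The other genes of these families and pathways were read from lists chosen by name. Of all genes tested on SC, 17.7% were higher and 18.3% lower in hypothalamus than in cortex, 36.1% in either direction. In hippocampus minus cortex on SC these shares were 15.4%, 15.3% and 30.8%. A list's count near these shares is not a result about the list. Of 18 other connexins and pannexins 8 passed the filter. In hypothalamus minus cortex on SC 2 were higher and 2 lower. Panx1, a channel-forming pannexin, was higher at 2.66 (SE 0.37, edgeR adjusted p = 7.71e-07), and Panx2 at -1.87 (SE 0.43, edgeR adjusted p = 0.000956) and the vascular connexin Gja5 at -1.67 (SE 0.65, edgeR adjusted p = 0.0428) were lower. Of 11 other inward rectifiers tested, 2 were higher and 4 lower in hypothalamus than in cortex on SC, and 2 and 4 in hippocampus. Kcnj13, a channel of the choroid plexus, was higher in hippocampus, at 3.52 (SE 1.17, edgeR adjusted p = 0.0219), beside the choroid plexus markers described above.

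Of 9 other two-pore channels tested, 2 were higher and 2 lower in each of these comparisons, to be read beside the shares of all genes given above. Kcnk4 (TRAAK), from the subfamily of Kcnk2, was lower by -1.97 (SE 0.30, edgeR adjusted p = 3.78e-06) and -1.95 (SE 0.32, edgeR adjusted p = 3.99e-05). Of 16 potassium uptake partners, 3 were higher and 7 lower in hypothalamus, and 3 and 9 in hippocampus. Kcnn2, a calcium-activated potassium channel, was at -2.37 (SE 0.53, edgeR adjusted p = 0.000734) and -2.47 (SE 0.57, edgeR adjusted p = 0.00159). Of 16 junction and endfoot scaffold genes none was higher and 6 were lower in each, among them Aqp4, the water channel of endfeet that Kir channels share, at -1.63 (SE 0.41, edgeR adjusted p = 0.00234) and -1.96 (SE 0.44, edgeR adjusted p = 0.00124). The medians of the last list were -0.46 and -0.49 against 0.06 and 0.04 over all genes. No gene of any list was called for diet or interaction by edgeR.

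Across the 35 libraries, the genes most like each member by Pearson correlation of log2 CPM fell into sets that were shared or apart. These are descriptions over libraries that share regions and cell makeup. For Gja1 they were Chst10 (r = 0.984), Arhgef26 (0.982) and Kcnj16 (0.976), and for Kcnj16 they were Chst10 (0.980), Gja1 (0.976) and Fam49a (0.97). For Gjb6 they were Cyp2j9 (0.987), Gabrg1 (0.985) and F3 (0.983). For Gjb1 they were the myelin enzyme gene Cnp (0.983), Lgi3 (0.979) and Phlda3 (0.979), and for Gjc3 Pllp (0.956), Tubb4a (0.955) and Gjb1 (0.953). Kcnk1 had Asah1 (0.947), Speg (0.946) and Ephx2 (0.946), and Kcnk2 had Lmcd1 (0.923), Ankrd29 (0.921) and Hbegf (0.896). The closest genes of Gjb2 (Fzd1 at 0.878, Lfng at 0.866, Pld2 at 0.860) and of Kcnj10 (Cbx3 at 0.878, Pcdh17 at 0.824, Ptar1 at 0.822) were less alike. Kcnj10 did not have Kcnj16, its partner subunit, among its 3 closest genes.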

How the data were processed

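Transcripts were quantified by the authors with Salmon against GRCm38, with FastQC for read quality, per the submitters' processing notes; versions were not given in the sources used here. SMART-Seq v4 libraries do not mark strand. The deposited files hold, for each transcript, estimated counts and TPM. Transcript identifiers were matched to GENCODE M21 (139852 of 140948), and both units were summed per gene; unmatched transcripts held 0.21 to 0.54% of reads. Estimated counts were rounded. edgeR 4.0.16 (R 4.3.3) fitted robust quasi-likelihood models after filterByExpr and TMM scaling, with Benjamini-Hochberg adjustment over all genes: diet within each region, and regions and interactions in a model of all 6 groups (21574 genes). The standard error (SE) was taken from each test's F and log2 difference, as |log2 difference|/sqrt(F). TPM ratios used a pseudocount of 0.1. Same-numbered hypothalamus and cortex SC libraries deviated together in 6 of 6 pairs (correlations 0.11 to 0.53). The fit with a replicate block is therefore given beside Gjb1 and Gjc3 in that comparison, whose call it changed. For the other region comparisons whose calls it moved, only the counts of called members under the block are given. The fits and permutation tests reported first ignore the numbers. No 2 libraries correlated above 0.981. DESeq2 1.42.0, limma 3.58.1, other scalings and filters, a replicate block and left-out libraries were the alternatives; limma on TPM and the paired test of ratios were added after the data were seen. All 9 members are named in each diet and region comparison; genes named from a related list are among the 4 with the smallest p in a comparison; of each member the 3 most correlated genes with mean log2 CPM of at least 3 are named. The tests were checked on simulated data. The members and lists were chosen with earlier results of these data known. Some genes of the related lists are not reported here.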

Additional observations from a re-analysis of the deposited data

Results flagged for a closer look

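In 11 of 54 groups of libraries, 1 library's normalised CPM of a member stood apart from the rest by Dixon's 95% criterion. Chance meets this criterion in about 1 in 20 groups only where values are normally distributed. Here the values were not log-transformed, each flagged library was the highest of its group, and the genes share libraries. The count is therefore not to be read against that rate. Hypothalamus HFHS replicate 2 was the high library for 5 genes: Gja1 at 2691, Gjb2 at 38.1, Gjb6 at 1094, Kcnj16 at 308 and Kcnk1 at 185, against next values of 881, 11.8, 297, 117 and 58.9. It also held the highest summed astrocyte marker TPM of its group, 9844, and the part of this in its levels was not tested. Replicate 3 of cortex was the high library for Gjb1 on both diets, at 162 on SC and 391 on HFHS, and held the highest oligodendrocyte marker sum of each group. Gjb2 stood high at 13.6 in hypothalamus SC replicate 2 and at 11.9 in hippocampus SC replicate 4. Kcnj16 stood high at 139 in hippocampus SC replicate 2, and Kcnj10 at 297 in cortex HFHS replicate 6, a library whose reads came from shorter transcripts.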

How the results depend on the processing

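Depth was 47578560 reads or more, and the fewest reads of a member in a library were 64, for Gjb2, whose values are the least precise. No diet or interaction call of a member appeared under any setting or left-out library. Members called between hypothalamus and hippocampus on SC went from 1 to 4 with voom quality weights and 2 with the replicate block, between hypothalamus and cortex on HFHS from 2 to 4 and 5, and between hypothalamus and hippocampus on HFHS from 1 to 4 and 6, and to 3 with DESeq2; the cause was not tested. Deviations of same-numbered libraries correlated above 0.1 in 6 of 6 pairs of hypothalamus and cortex on SC. They did so in 5 of 6 pairs of the diets in cortex. For the diets in hippocampus, and for hypothalamus and hippocampus on SC, it was 4 of 5 pairs, and fewer elsewhere. The median correlation was higher between the diets, at 0.50 in cortex (-0.24 to 0.84) and 0.51 in hippocampus (0.09 to 0.82), than for hypothalamus and cortex on SC (0.28). The diet tests on ratios were not paired. What the numbers stand for is not known. Leaving out 1 library at a time gave 5 to 8 members in hypothalamus minus cortex on SC, 8 in hippocampus minus cortex on SC, 1 in hypothalamus minus hippocampus on SC, and 2 to 3, 6 to 9 and 1 to 4 on HFHS, 0 for diet and interaction, and 13 to 31 of the 135 ratios (lowest without cortex SC replicate 1 or 4, where it was 13, and 15 without replicate 5); with the replicate block in hypothalamus minus cortex on SC it was 9, where sign flips of 6 pairs cannot go below p = 0.0312 (exact).

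Signs turned only in differences that were not called. For diet in hippocampus these were, with voom, Gja1 at 8.74e-05 and Kcnk1 at 0.18; with the replicate block Gjb6 at -0.51, Gjb1 at 0.061 and Kcnk2 at -0.23; with limma on TPM Gjb6 at -0.085; and Kcnk1 at 0.0063 with no filter and 0.0026 with all 6 groups in 1 model. For diet in cortex Gja1 was at 0.023 with voom, 0.028 with library size scaling, 0.013 with the block and 0.15 with limma on TPM, where Gjb6 was at 0.065; Kcnj10 was at -0.017 with no filter, -0.037 without the 3 short libraries and -0.028 with all 6 groups. Between regions, Kcnj10 in hypothalamus minus hippocampus on SC was at -0.052 and Gjb1 in hypothalamus minus cortex on HFHS at -0.13 without the short libraries, Gjb2 in the latter at -0.015 with voom, and Kcnk2 in hypothalamus minus hippocampus on HFHS at 0.18 with the block. Over left-out libraries the diet differences that crossed 0 ran, in hypothalamus, from -0.40 to 0.018 for Gjb1; in hippocampus, from -0.62 to 0.68 for Gja1, -0.13 to 1.07 for Gjb6, -0.0095 to 0.37 for Kcnj10, -0.44 to 0.54 for Kcnj16, -0.30 to 0.18 for Kcnk1 and -0.12 to 0.36 for Kcnk2; in cortex, from -0.14 to 0.10 for Gja1, -0.27 to 0.079 for Gjb6, -0.14 to 0.96 for Gjb1, -0.30 to 0.48 for Gjc3 and -0.29 to 0.17 for Kcnj10. Region differences that crossed 0 were Gjb2 (-0.14 to 0.31) and Kcnj10 (-0.13 to 0.24) in hypothalamus minus hippocampus on SC, and Gjb2 (-0.068 to 0.83) and Gjb1 (-0.062 to 0.91) in hypothalamus minus cortex on HFHS. Of the member results under settings other than left-out libraries, 627 kept direction and call, 28 gained a call, 15 lost one and 20 turned sign; over left-out libraries these were 2223, 11, 26 and 50.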
